A study of Mus musculus with 18 samples.

Results

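Mechanosensitive channels and calcium entry are described through 10 genes, grouped by what their proteins do: the stretch-gated channels Piezo1, Tmem63a and Tmem63b, the TRP channels Trpv2, Trpm2 and Trpm7, the store-operated entry genes Stim1 and Orai1, and the calcium release genes Itpr1 and Itpr2. They were chosen by name, as the rows of the deposited table whose gene symbol is among these names, and 10 of the 62197 rows matched. A gene was tested where at least 3 of the 18 libraries held at least 10 normalized counts, which 17875 rows did, all 10 members among them.

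Piezo and TMEM63 channels open when the membrane around them is stretched and let cations, calcium among them, into the cell. Calcium also comes from the endoplasmic reticulum, where inositol trisphosphate (IP3) opens its receptors, and the emptied store is sensed by STIM proteins, which then open ORAI channels in the plasma membrane. In dendritic cells (DCs) calcium signals take part in migration and maturation, and a rise in calcium brings cytosolic phospholipase A2 (cPLA2), which frees arachidonic acid, to its membranes.

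The study asked how squeezing changes DCs and what cPLA2 contributes. Polyadenylated RNA was sequenced from mouse DCs grown from bone marrow for 10 days in medium with granulocyte-macrophage colony-stimulating factor, in 6 groups of 3 libraries. Nonconfined cells were collected at the end of the culture, confined cells 4 h after being squeezed to 3 µm, and LPS cells the day after 30 min (25 min by the study's methods) with lipopolysaccharide (LPS, 100 ng/ml) and a wash. A treatment text that mentions LPS stands with all the samples, so the groups here follow the titles and the treatment entries. Each condition has a group labelled cPLA2 WT and a group labelled cPLA2 KO, from mice of either sex. The study's methods give the mice as 8 to 14 weeks old in general and the donors of bone marrow for DC cultures as 6 to 8 weeks old. The KO mice carry floxed Pla2g4a, which encodes cPLA2, with Cre under the Itgax promoter, so the gene is removed only from cells that have turned that promoter on. Such cultures also give rise to macrophages and granulocytes, and the methods tell DCs apart from both by adhesion, which is absent in granulocytes and strong in macrophages, and recover the semiadherent cells between. Depth was 33027230 to 61300021 reads on genes per library. By group it was 34689393 to 45020354 in nonconfined WT, 36034820 to 45021696 in nonconfined KO, 33592725 to 45769637 in confined WT and 33027230 to 39400286 in confined KO. The LPS libraries held 52116837 to 61300021 reads where labelled WT and 39609637 to 45160523 where labelled KO. The labels do not say whether replicates come from separate cultures, so the p-values measure only the spread between these libraries.

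Pla2g4a read 697, 686 and 770 normalized counts in the nonconfined WT libraries and 548, 542 and 533 in the nonconfined KO libraries. After confinement it read 1369, 1430 and 1321 in WT and 923, 871 and 920 in KO. Every KO library lay below every WT library of its condition, with log2 differences of -0.41 (adjusted p = 1.90e-04) and -0.60 (adjusted p = 3.81e-08), and transcripts of the gene were still counted in the KO cells. In the LPS libraries Pla2g4a read 1005, 969 and 967 where labelled WT and 1065, 1032 and 1028 where labelled KO. There the libraries labelled KO were all above those labelled WT, against their labels (log2 difference 0.09, adjusted p = 1). Ddx3y, a gene of the Y chromosome, read 3.05, 0 and 1.97 in nonconfined WT, 949, 981 and 874 in nonconfined KO, 0, 1.72 and 2.37 in confined WT and 1036, 920 and 948 in confined KO. It read 1271, 0 and 662 in the LPS libraries labelled WT and 2.12, 1476 and 783 in those labelled KO. Thus Ddx3y split the nonconfined and confined libraries by genotype but not the LPS libraries, where each label held a library near 0, a high library and a library in between. Xist, which is transcribed from an inactive X chromosome, read 27953, 33681 and 30681 in nonconfined WT, 12153, 19081 and 14328 in nonconfined KO, 22734, 33482 and 29759 in confined WT and 16980, 24835 and 20600 in confined KO. It was present in all of these libraries, so the KO libraries held both Xist and Ddx3y. Genotype and the sexes of the donor mice therefore cannot be told apart in the nonconfined and confined groups. The LPS groups are called by their labels below, LPS is compared with the nonconfined cells over both labels together, and each comparison without LPS was also run without the LPS libraries.

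The DC label was checked with 7 marker genes, all of them present in every library. Their summed level was 355292, 330015 and 336286 normalized counts in nonconfined WT and 411794, 388899 and 403006 in nonconfined KO, with Cd74 and H2-Ab1 making up most of it. The sum was 300938, 280061 and 289134 in confined WT and 287565, 272803 and 285897 in confined KO, so confined libraries were low and did not overlap with the nonconfined libraries. In the LPS libraries it was 482685, 410050 and 440067 where labelled WT and 415465, 473777 and 452120 where labelled KO, above nonconfined WT and overlapping with nonconfined KO. With LPS 5 of the 7 genes were higher and 1, Cd209a, was lower (-3.95), beside 37.2% and 34.3% of all genes tested. Of the 7 genes, 7 fell with confinement in WT and 7 in KO, where 28.4% and 23.4% of all genes tested were lower. Apart from Cd74 and H2-Ab1, the nonconfined WT means were 8714 for Ciita, 6281 for Itgax, 738 for Zbtb46, 154 for Cd209a and 119 for Flt3. The 8 macrophage genes, led by Csf1r, summed to a mean of 53287 in the same libraries. The share of each cell type was not tested. In bulk RNA, fewer cells of a type and less RNA per cell cannot be told apart.

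Levels of different genes were compared per kilobase of exon, with all annotated exons of a gene (GENCODE M39) merged over its transcripts. This length was 9939 bases for Piezo1 and 10405 for Stim1. It can exceed the length of any single transcript, so the order between genes depends on this choice of length. In nonconfined WT cells Orai1, the pore of the store-operated channel, had 1693 ± 94.3 normalized counts per kilobase (mean ± SD of 3 libraries) and Trpv2, a cation channel of immune cells, 1523 ± 56.9. Stim1 (299 ± 12.5), Piezo1 (271 ± 18.5) and Itpr1 (226 ± 2.80) formed a middle tier. Trpm7 had 87.5 ± 3.80 per kilobase and Tmem63a 40.5 ± 2.43. Itpr2 at 27.1 ± 0.797 and Tmem63b at 25.7 ± 1.98 did not differ beyond their spread, their gap being smaller than the sum of their SDs, and the same held for Stim1 and Piezo1. Trpm2 was lowest, at 14.9 ± 0.552. After confinement of WT cells Trpv2 (1799 ± 31.4 per kilobase) passed Orai1 (1656 ± 71.3), Piezo1 (383 ± 6.49) passed Stim1 (263 ± 8.02), and Itpr1 (90.0 ± 6.06) fell below Trpm7 (106 ± 4.80). Tmem63a (66.9 ± 3.19) and Tmem63b (58.2 ± 6.46) were next in this order and within the sum of their SDs, followed by Itpr2 (16.8 ± 0.865) and Trpm2 (5.82 ± 1.58). In the LPS libraries labelled WT the order ran Orai1 (1301 ± 7.77 per kilobase), Trpv2 (1122 ± 14.1), Piezo1 (445 ± 33.2), Stim1 (213 ± 3.00), Itpr1 (184 ± 25.2), Trpm7 (107 ± 6.67), Tmem63b (71.1 ± 5.66), Tmem63a (67.5 ± 9.32), Itpr2 (32.2 ± 3.20) and Trpm2 (9.48 ± 1.25). There Tmem63b and Tmem63a did not differ beyond their spread.

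In KO cells the order was the WT order in each condition, with the LPS libraries taken by their labels. Nonconfined KO cells ran from Orai1 (1823 ± 131 per kilobase), Trpv2 (1569 ± 12.7), Stim1 (306 ± 6.14), Piezo1 (238 ± 22.8) and Itpr1 (194 ± 13.0) to Trpm7 (77.9 ± 13.9), Tmem63a (39.7 ± 2.46), Itpr2 (30.7 ± 2.42), Tmem63b (29.9 ± 2.29) and Trpm2 (23.5 ± 2.89). Itpr2 and Tmem63b did not differ beyond their spread there. Confined KO cells ran from Trpv2 (1823 ± 78.4 per kilobase), Orai1 (1541 ± 77.5), Piezo1 (401 ± 17.2), Stim1 (319 ± 20.3) and Trpm7 (107 ± 3.54) to Itpr1 (63.7 ± 4.22), Tmem63a (61.6 ± 2.76), Tmem63b (49.3 ± 2.06), Itpr2 (21.1 ± 1.12) and Trpm2 (17.2 ± 1.72), with Itpr1 and Tmem63a within their spread. The LPS libraries labelled KO had Orai1 at 1357 ± 32.9 per kilobase, Trpv2 at 1105 ± 63.8, Piezo1 at 401 ± 7.995, Stim1 at 217 ± 19.5, Itpr1 at 162 ± 36.9, Trpm7 at 96.0 ± 3.79, Tmem63b at 74.3 ± 5.34, Tmem63a at 63.7 ± 7.41, Itpr2 at 27.1 ± 2.21 and Trpm2 at 11.7 ± 1.40. There Stim1 and Itpr1, and Tmem63b and Tmem63a, did not differ beyond the sum of their SDs.

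**Figure D1:**
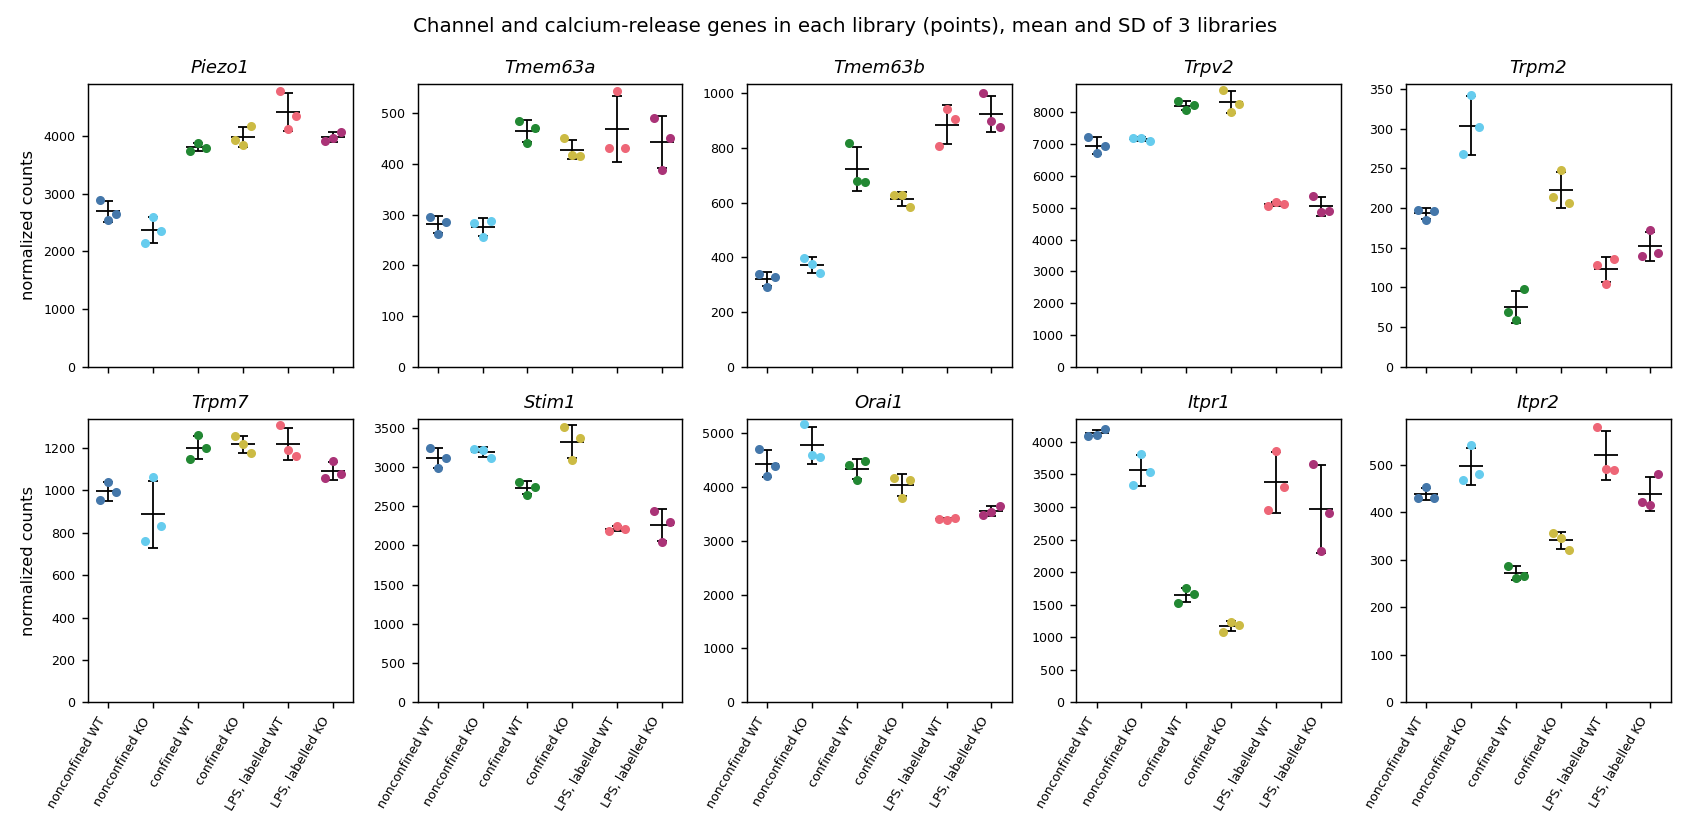
Normalized counts (vertical axes, from 0) of the 10 genes in each of the 18 libraries, by group, with the mean and SD of 3 libraries. The panels show Piezo1, Tmem63a, Tmem63b, Trpv2 and Trpm7 higher, and Itpr1 and Itpr2 lower, in every confined library than in every nonconfined library.

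Piezo1, a channel opened directly by membrane tension (GSMG0055763, chr8:123208437-123278068, minus strand), read 2899, 2539 and 2653 normalized counts in nonconfined WT and 3747, 3876 and 3802 in confined WT. In KO cells it read 2148, 2601 and 2354 nonconfined and 3928, 3854 and 4179 confined. Every confined library was high and every nonconfined library low, with no overlap. The LPS libraries read 4779, 4129 and 4357 where labelled WT and 3918, 3968 and 4074 where labelled KO, all above every nonconfined library. With confinement Piezo1 rose by a log2 change of 0.50 ± 0.07 (± standard error; adjusted p = 1.05e-06 by limma over all genes) in WT and 0.75 ± 0.07 (adjusted p = 4.79e-09) in KO. With LPS it rose by 0.73 ± 0.05 (adjusted p = 3.81e-12). At equal library totals the LPS values of all 10 genes were lower, as the median of all genes went from 0.02 to -0.47, so this rise was smaller there. Tmem63b, a stretch-gated channel of the OSCA and TMEM63 family (GSMG0024812, chr17:45971098-45997149, minus strand), read 340, 292 and 328 in nonconfined WT and 817, 678 and 676 in confined WT. Its KO values were 398, 377 and 342 nonconfined and 627, 628 and 583 confined. The confined libraries were again all high, and the WT libraries higher than the KO libraries. LPS libraries held 806, 942 and 906 counts of Tmem63b where labelled WT and 999, 897 and 875 where labelled KO, which overlapped with the confined WT range at its top. Its log2 change was 1.17 ± 0.09 (adjusted p = 4.55e-10) with confinement in WT, 0.72 ± 0.09 (adjusted p = 1.43e-06) in KO and 1.39 ± 0.06 (adjusted p = 2.23e-14) with LPS, the widest rise of the 10 genes in WT and with LPS.

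Tmem63a, of the same family (GSMG0001273, chr1:180770030-180802669, plus strand), read 296, 263 and 285 in nonconfined WT, 484, 441 and 470 in confined WT, 284, 256 and 287 in nonconfined KO and 450, 418 and 416 in confined KO. It read 431, 544 and 432 in LPS libraries labelled WT and 490, 388 and 450 in those labelled KO. The nonconfined libraries were all low, and the confined and LPS libraries all high and overlapping with each other. Tmem63a rose by 0.72 ± 0.10 (adjusted p = 3.59e-06) with confinement in WT, 0.63 ± 0.10 (adjusted p = 3.42e-05) in KO and 0.70 ± 0.07 (adjusted p = 1.81e-08) with LPS. The LPS value was 0.21 at equal library totals, still past the threshold, but taken by label it was 0.22 (WT) and 0.20 (KO) there and not past it. Of the relatives of these channels, Piezo2 was at 0 in all 18 libraries, and Tmem63c, with 0 to 11.1 counts, did not pass the filter.

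Trpv2 (GSMG0007533, chr11:62465312-62491131, plus strand) read 7226, 6707 and 6936 normalized counts in nonconfined WT and 8356, 8069 and 8224 in confined WT. In KO it read 7187, 7209 and 7099 nonconfined and 8707, 7996 and 8273 confined. The LPS libraries read 5061, 5190 and 5115 where labelled WT and 5383, 4871 and 4886 where labelled KO. The 3 conditions did not overlap: confined libraries were highest, LPS libraries lowest and nonconfined libraries in between. Trpv2 rose with confinement by 0.24 ± 0.05 (adjusted p = 1.01e-04) in WT and 0.22 ± 0.05 (adjusted p = 4.89e-04) in KO, and changed by -0.47 ± 0.03 (adjusted p = 1.27e-11) with LPS. At equal library totals the WT value of Trpv2 was 0.02 and not past the threshold. Trpm7, a channel fused to a kinase that passes magnesium and calcium (GSMG0032739, chr2:126633478-126718181, minus strand), ranged from 762 to 1065 in the 6 nonconfined libraries and from 1150 to 1259 in the 6 confined libraries. These ranges did not touch, while the LPS range of 1056 to 1307 overlapped with the nonconfined range. Trpm7 rose by 0.27 ± 0.09 (adjusted p = 0.0115) with confinement in WT, a call lost without confined WT replicate 2 (0.24, adjusted p = 0.0515) and at equal library totals (0.05), and by 0.47 ± 0.09 (adjusted p = 1.56e-04) in KO. With LPS its change was 0.30 ± 0.06 (adjusted p = 1.68e-04), and -0.19 at equal library totals, that is, with all libraries brought to 1 sum of counts, so its direction with LPS depends on the scaling. Of a relative, Trpv4, the values with confinement were 0.13 (adjusted p = 0.573) in WT (-0.10 at equal library totals) and -0.15 (adjusted p = 0.518) in KO, and with LPS it was 0.56 (adjusted p = 3.74e-04), or 0.07 and not past the threshold at equal library totals.

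Trpm2, a channel opened by ADP-ribose and oxidants that passes calcium into myeloid cells (GSMG0006069, chr10:77743556-77805706, minus strand), read 198, 185 and 197 normalized counts in nonconfined WT and 68.6, 59.2 and 98.3 in confined WT. In KO it read 268, 343 and 302 nonconfined and 214, 248 and 207 confined. Confined WT libraries were the lowest, and every KO library was above every WT library of its condition. LPS libraries read 128, 104 and 135 where labelled WT and 140, 173 and 143 where labelled KO, between the confined WT and the nonconfined libraries. Trpm2 changed by -1.38 ± 0.17 (adjusted p = 3.21e-07) with confinement in WT and by -0.83 ± 0.12 (adjusted p = 1.74e-06) with LPS. In KO its change was -0.44 ± 0.17 (adjusted p = 0.0331), a call lost without any of 4 libraries in turn (nonconfined KO replicate 2 or 3 or confined KO replicate 1 or 3), with -0.45 to -0.35 and adjusted p from 0.071 to 0.131. Trpm2 had the widest range of the 10 genes over the 6 group means, 2.02 on the log2 scale.

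Stim1, the calcium sensor of the endoplasmic reticulum (GSMG0049634, chr7:101917011-102086525, plus strand), read 3245, 2985 and 3107 normalized counts in nonconfined WT and 2809, 2644 and 2746 in confined WT. In KO it read 3227, 3213 and 3110 nonconfined and 3509, 3093 and 3363 confined. Confined WT libraries were all below the nonconfined WT libraries, whereas the KO groups overlapped. LPS libraries were low throughout, at 2183, 2245 and 2212 where labelled WT and 2438, 2038 and 2301 where labelled KO. Stim1 changed by -0.19 ± 0.06 (adjusted p = 0.0106) with confinement in WT, which was lost without nonconfined WT replicate 1 (-0.16, adjusted p = 0.056), and by -0.49 ± 0.04 (adjusted p = 6.81e-10) with LPS. In KO the change was 0.06 ± 0.06 (adjusted p = 0.441), not past the threshold. Orai1, the pore that STIM1 opens (GSMG0041091, chr5:123153136-123168515, plus strand), ranged from 4209 to 4696 in nonconfined WT and from 4123 to 4475 in confined WT, which overlapped. In KO it ranged from 4549 to 5167 nonconfined and from 3799 to 4174 confined, without overlap. All LPS libraries were low, at 3383 to 3647. Its change was -0.03 ± 0.05 (adjusted p = 0.662) with confinement in WT (-0.26 at equal library totals, and 0.01 without nonconfined WT replicate 1), -0.24 ± 0.05 (adjusted p = 0.00106) in KO and -0.40 ± 0.04 (adjusted p = 5.80e-09) with LPS.

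Relatives of these genes were also tested. Orai2 read 2909, 2747 and 2931 in nonconfined WT, 6167, 5923 and 6030 in confined WT, 3118, 3289 and 3216 in nonconfined KO and 3672, 3154 and 3461 in confined KO. Confined WT libraries were thus well above all others of these groups, and the confined KO range overlapped with the nonconfined KO range. Orai2 rose by 1.08 ± 0.08 (adjusted p = 2.79e-10) with confinement in WT and 1.25 ± 0.06 (adjusted p = 1.97e-14) with LPS, and its change was 0.09 ± 0.08 (adjusted p = 0.372) in KO, with a difference between the genotypes of -0.98 ± 0.12 (adjusted p = 9.35e-07). Orai3 changed by -0.69 (adjusted p = 5.33e-09) in WT, -0.42 (adjusted p = 1.47e-05) in KO and -0.43 (adjusted p = 1.94e-08) with LPS. Stim2, a sensor of small changes in the store, rose by 0.25 (adjusted p = 0.0108) in WT and 0.57 (adjusted p = 6.74e-09) with LPS. In KO its value was -0.03 (adjusted p = 0.781), not past the threshold (0.06 without nonconfined KO replicate 2 and 0.04 without confined KO replicate 2). At equal library totals, the WT and LPS values of Stim2 were 0.02 and 0.07 and not past the threshold. The difference between the confinement changes of Stim2 in KO and WT was -0.28 (adjusted p = 0.0735), not past the threshold, and passed it with TMM scaling (-0.31), edgeR (-0.31) and without confined KO replicate 1 (-0.33).

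Itpr1, an IP3 receptor (GSMG0044807, chr6:108190055-108528077, plus strand), read 4096, 4112 and 4192 normalized counts in nonconfined WT and 1533, 1754 and 1661 in confined WT. In KO it read 3332, 3806 and 3543 nonconfined and 1084, 1237 and 1183 confined. All confined libraries were low, with the KO libraries below the WT libraries, and none overlapped with a nonconfined library. LPS libraries spread widely, at 2950, 3866 and 3310 where labelled WT and 3667, 2319 and 2903 where labelled KO. The highest values of each label, 3866 and 3667, were in the libraries with Ddx3y near 0, and the LPS range overlapped with the nonconfined range. Itpr1 changed by -1.33 ± 0.11 (adjusted p = 2.04e-09) with confinement in WT, -1.61 ± 0.11 (adjusted p = 2.23e-10) in KO and -0.29 ± 0.08 (adjusted p = 0.00265) with LPS. Itpr2, another IP3 receptor (GSMG0047576, chr6:146009798-146403721, minus strand), read 431, 453 and 430 in nonconfined WT and 288, 262 and 265 in confined WT. Its KO values were 467, 541 and 481 nonconfined and 356, 345 and 321 confined. Confined libraries were again all low, here with WT below KO. LPS libraries held 580, 491 and 490 counts of Itpr2 where labelled WT and 421, 415 and 480 where labelled KO, in and around the nonconfined range. Its change was -0.69 ± 0.09 (adjusted p = 1.38e-06) with confinement in WT and -0.54 ± 0.09 (adjusted p = 5.11e-05) in KO. With LPS it was 0.03 ± 0.06 (adjusted p = 0.662), -0.46 at equal library totals, -0.02 with TMM scaling, -0.01 by edgeR and -0.01 without LPS labelled WT replicate 1. Itpr3 changed by -0.95 (adjusted p = 2.94e-04) with confinement in WT and -1.53 (adjusted p = 1.83e-09) with LPS, and its value in KO, -0.16 (adjusted p = 0.544), was not past the threshold.

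**Figure D2:**
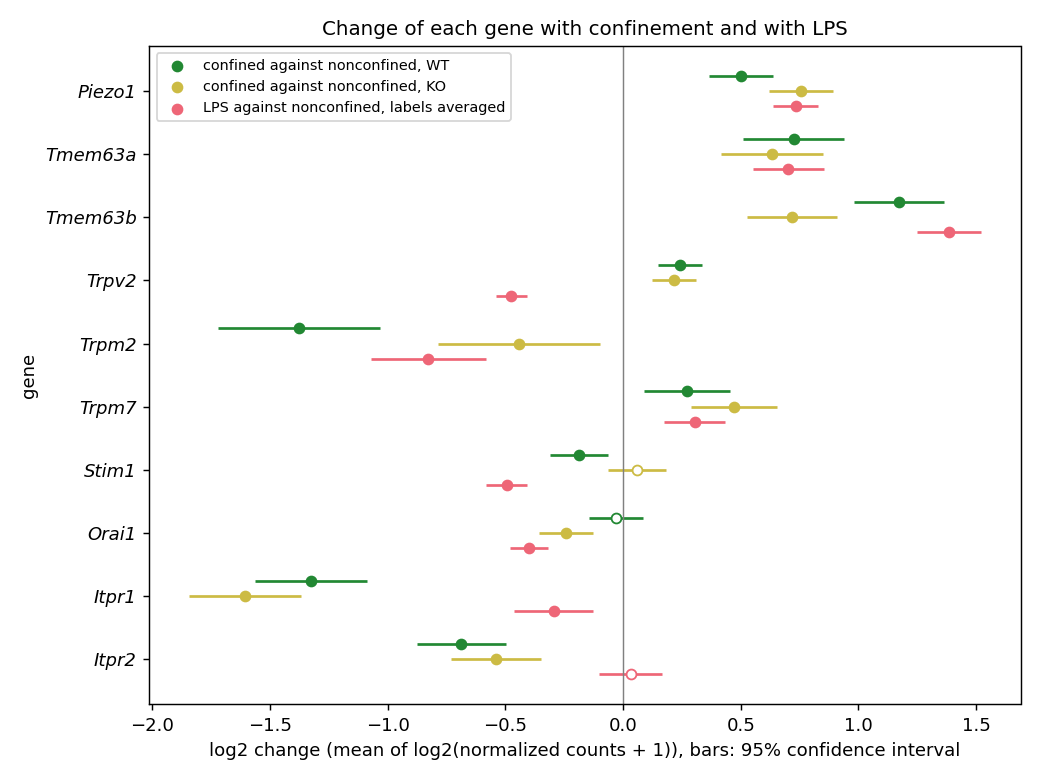
Log2 change (horizontal axis) of each gene with confinement in WT cells, with confinement in KO cells and with LPS, with 95% confidence intervals, where open points are not past the threshold of an adjusted p of 0.05. Tmem63b has the largest rises, 1.17 and 1.39, and Itpr1 falls most with confinement in KO, at -1.61, while the direction of Trpm7 and Itpr2 with LPS turns at equal library totals.

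Counted together, 5 of the 10 genes were higher and 4 lower in confined than in nonconfined WT cells at an adjusted p under 0.05, beside 28.2% and 28.4% of all genes tested. The count with an absolute log2 change above 1 was 3 (Tmem63b, Trpm2 and Itpr1), beside 19.0% of all genes. In KO cells 5 were higher and 4 lower, beside 22.8% and 23.4%, with 1 above that size (Itpr1), beside 12.0%. With LPS 4 were higher and 5 lower, beside 37.2% and 34.3%, with 1 above that size (Tmem63b), beside 29.0%. The median log2 change of the 10 genes was 0.10 with confinement in WT (-0.12 at equal library totals), 0.14 in KO (0.10) and -0.13 with LPS (-0.63). Over all genes tested it was -0.005, 0.010 and 0.020. Confined and LPS cells are compared with the same nonconfined libraries.

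The share of genes called in each direction depended on the scaling. At equal library totals the median of all genes became -0.23 with confinement in WT and -0.47 with LPS, against -0.02 with confinement in KO, and the calls over all genes went from 5038 higher and 5075 lower to 3575 and 7403 in WT and from 6648 higher and 6126 lower to 3606 and 10246 with LPS. The median became 0.24 for the difference of the confinement changes between genotypes (from 1823 higher and 2796 lower to 4740 and 1967), 0.19 for confined KO against confined WT (from 3356 higher and 3682 lower to 6002 and 2599) and 0.27 for confined WT against LPS (from 4383 higher and 5318 lower to 8087 and 2669). For nonconfined KO against WT the calls went from 854 higher and 734 lower to 756 and 1042. Scaling shifts the log2 changes of all genes nearly alike, by construction. Trpv2 (0.02) and Trpm7 (0.05) were no longer called with confinement in WT at equal library totals and Orai1 (-0.26) was, which makes 3 members higher and 5 lower. With LPS Trpm7 (-0.19) and Itpr2 (-0.46) were then called lower, so the members were 3 higher and 7 lower. The member counts higher and lower at these totals were 5 and 4 with confinement in KO, 5 and 0 for the difference between genotypes, 1 and 1 for nonconfined and 5 and 1 for confined KO against WT, and 6 and 3 for confined WT against LPS.

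Whether confinement changed a gene to a different degree in KO than in WT was tested by the difference of the changes. It was past the threshold for 3 higher and 1 lower of the 10 genes, beside 10.2% and 15.6% of all genes. Trpm2 changed less in KO (difference 0.94 ± 0.23, adjusted p = 0.00465). Tmem63b rose less in KO (-0.45 ± 0.13, adjusted p = 0.0128), which at equal library totals was -0.26 and not past the threshold. Piezo1 rose more in KO (0.26 ± 0.09, adjusted p = 0.0462), a call lost without any of 11 libraries in turn (nonconfined WT replicate 1 or 3, nonconfined KO replicate 1 or 3, confined WT replicate 1, 2 or 3, confined KO replicate 1 or 3, LPS labelled WT replicate 3 or LPS labelled KO replicate 3), with 0.19 to 0.27 and adjusted p from 0.0554 to 0.139. For Stim1 the difference was 0.25 ± 0.08 (adjusted p = 0.0349), lost without any of 7 libraries in turn (nonconfined WT replicate 1 or 3, nonconfined KO replicate 3, confined WT replicate 2 or 3 or confined KO replicate 1 or 3), with 0.21 to 0.25 and adjusted p from 0.0568 to 0.0969. Piezo1 was also not past the threshold with the replicate block (0.26). With no filter, TMM scaling or edgeR neither of them was past it (Piezo1 0.26, 0.22 and 0.22, Stim1 0.25, 0.21 and 0.21). The differences of the other 6 genes were not past the threshold. Among them Orai1 (-0.21, adjusted p = 0.0507) passed it without any of 5 libraries in turn (nonconfined WT replicate 1, nonconfined KO replicate 2 or 3, confined WT replicate 2 or confined KO replicate 1), with -0.25 to -0.24 and adjusted p from 0.0255 to 0.044. With all libraries it passed the threshold with a pseudocount of 5 (-0.21), a filter of 100 (-0.21), TMM scaling (-0.25), edgeR (-0.25), DESeq2 (-0.22) and the replicate block (-0.21). Trpm7 (0.20, adjusted p = 0.271) passed it without nonconfined KO replicate 2 (0.34, adjusted p = 0.0104). Trpm7 (0.39) and Itpr2 (0.34) passed it at equal library totals. Itpr1 (-0.28, adjusted p = 0.225) passed it without the LPS libraries and with only the groups compared (-0.28). The small differences of Tmem63a (-0.09) and Trpv2 (-0.02) were 0.10 and 0.16 at equal library totals. Without the LPS libraries, 5 genes were past the threshold in place of 4.

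KO and WT cells that were not confined differed in 1 of the 10 genes, higher in KO, and in 0 lower, beside 4.78% and 4.11% of all genes by limma. At an unadjusted p under 0.05 the genes were 3. With DESeq2, 2 genes passed the adjusted threshold, and with edgeR 1. The gene by limma was Trpm2 (0.65 ± 0.17, adjusted p = 0.0179), higher in 3 of 3 KO libraries than in any WT library. Its call was lost without any of 4 libraries in turn (nonconfined WT replicate 2 or 3 or nonconfined KO replicate 2 or 3), with 0.56 to 0.66 and adjusted p from 0.053 to 0.0701. Piezo1 (-0.19, adjusted p = 0.0768) and Trpm7 (-0.18, adjusted p = 0.233) passed the threshold without nonconfined KO replicate 2 (-0.26, adjusted p = 0.0119) and (-0.32, adjusted p = 0.00489). Piezo1 also passed it with DESeq2 (-0.19) and at equal library totals (-0.22). Without the LPS libraries 2 genes were called, Itpr1 besides Trpm2. After confinement KO was higher than WT in 3 genes and lower in 2, beside 18.8% and 20.6%, and the count was 5 also without the LPS libraries. Trpm2 was higher in KO by 1.58 ± 0.17 (adjusted p = 9.13e-08), Stim1 by 0.28 ± 0.06 (adjusted p = 7.00e-04) and Itpr2 by 0.32 ± 0.09 (adjusted p = 0.00713). Itpr1 was lower in KO (-0.50 ± 0.11, adjusted p = 0.00142), as was Tmem63b (-0.23 ± 0.09, adjusted p = 0.0473), the latter lost without any of 9 libraries in turn (nonconfined WT replicate 3, nonconfined KO replicate 2, confined WT replicate 1, confined KO replicate 1, 2 or 3, LPS labelled WT replicate 3 or LPS labelled KO replicate 2 or 3), with -0.25 to -0.15 and adjusted p from 0.0501 to 0.262, and also lost with no filter (-0.23) and at equal library totals (-0.08). For the other 5 genes the log2 differences were 0.07 for Piezo1, 0.02 for Trpv2, 0.02 for Trpm7, -0.12 for Tmem63a and -0.10 for Orai1. At equal library totals Piezo1 (0.22) and Trpv2 (0.17) passed the threshold, while Tmem63a stood at 0.04 and Orai1 at 0.05. Trpv2 and Trpm7 stood at -0.01 and -0.01 with TMM scaling.

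The LPS libraries labelled KO and WT differed in 0 of the 10 genes by limma, as 0 of 17875 genes passed the adjusted threshold in either direction, which is 0% of them. Each label held a library with Ddx3y near 0, a high one and one in between, and Pla2g4a was not lower where labelled KO. The comparison of these labels, and the changes by label, therefore cannot say what genotype does with LPS. At an unadjusted p under 0.05 there were 890 genes in all and 2 among the 10, Piezo1 (-0.15, adjusted p = 0.948) and Itpr2 (-0.24, adjusted p = 0.862). By edgeR and by DESeq2 the adjusted count was 0 as well, with 812 and 831 genes at an unadjusted p under 0.05. By label, the change with LPS was 0.24 (adjusted p = 0.025) for Itpr2 in the libraries labelled WT, against -0.18 (adjusted p = 0.0958) in those labelled KO. The WT value was lost without any of 3 libraries in turn (nonconfined WT replicate 1 or 3 or LPS labelled WT replicate 1), with 0.16 to 0.23 and adjusted p from 0.0649 to 0.16, and the KO value passed the threshold without LPS labelled KO replicate 3 (-0.24, adjusted p = 0.0404). At equal library totals the values were -0.27 and -0.66, both past the threshold. With TMM scaling the WT value (0.20) was not past it and the KO value (-0.23) was. Itpr1 changed by -0.30 (adjusted p = 0.0265) by the WT label, lost without any of 5 libraries in turn (nonconfined WT replicate 1, 2 or 3 or LPS labelled WT replicate 1 or 3), with -0.31 to -0.21 and adjusted p from 0.052 to 0.144, and by -0.29 (adjusted p = 0.0329) by the KO label, lost without any of 4 libraries in turn (nonconfined KO replicate 2 or 3 or LPS labelled KO replicate 2 or 3), with -0.29 to -0.12 and adjusted p from 0.0654 to 0.293. By the KO label Itpr1 stood at -0.45 without replicate 1, and its call was lost with no filter (-0.29) and with only the groups compared (-0.29). With the 6 LPS libraries taken as 1 group, 9 of the 10 genes were called against the nonconfined cells, as with the labels averaged.

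Confined WT cells were also set against the LPS libraries over both labels. The confined cells were collected 4 h after squeezing and the LPS cells the day after LPS. Ddx3y was near 0 in all confined WT libraries but not in all LPS libraries. The stimulus, the time of collection and the donor mice therefore cannot be told apart in this comparison. Of the 10 genes 3 were higher and 5 lower in confined WT cells, beside 24.5% and 29.8% of all genes. Trpv2 was higher by 0.69 ± 0.04 (adjusted p = 2.53e-12), Orai1 by 0.32 ± 0.05 (adjusted p = 8.08e-06) and Stim1 by 0.29 ± 0.05 (adjusted p = 6.13e-05). Itpr1 (-0.92 ± 0.10, adjusted p = 7.01e-08), Trpm2 (-0.87 ± 0.14, adjusted p = 2.40e-05) and Itpr2 (-0.81 ± 0.08, adjusted p = 1.86e-08) were lower. Tmem63b was lower, at -0.32 ± 0.08 (adjusted p = 0.00165), and stood at -0.04 at equal library totals. Piezo1 was lower, at -0.14 ± 0.06 (adjusted p = 0.0424), but at equal library totals it was higher and past the threshold (0.15, adjusted p = 0.0279). It was not past the threshold with the LPS libraries as 1 group (-0.14), no filter (-0.14), TMM scaling (-0.07), edgeR (-0.07), DESeq2 (-0.10) or the replicate block (-0.14). Its call was lost without any of 9 libraries in turn (nonconfined WT replicate 3, nonconfined KO replicate 3, confined WT replicate 1, 2 or 3, LPS labelled WT replicate 1 or 3 or LPS labelled KO replicate 2 or 3), with -0.15 to -0.11 and adjusted p from 0.0505 to 0.121. Trpm7 (0.06, adjusted p = 0.538) and Tmem63a (0.04, adjusted p = 0.76, and -0.01 without LPS labelled KO replicate 2) were not past the threshold, but at equal library totals both were, at 0.35 and 0.32.

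Markers of granulocytes were low in confined WT cells, as was Trpm2. The 8 neutrophil genes, all present in every library, summed to 235697, 241119 and 239306 normalized counts in nonconfined WT and 153927, 146750 and 144516 in confined WT. In KO they summed to 366741, 329384 and 354538 nonconfined and 332363, 345395 and 329357 confined, with S100a9 the most abundant. The sums were lowest in confined WT and higher in KO than in WT, without overlap. The 5 eosinophil genes, led by Prg2 and all present, summed to 28269, 28019 and 27895 in nonconfined WT, 7447, 6953 and 6897 in confined WT, 67779, 63420 and 65344 in nonconfined KO and 16454, 15962 and 16876 in confined KO. The 6 mast cell and basophil genes, led by Cpa3 and all present, summed to 6847, 7088 and 6952 in nonconfined WT, 3556, 3418 and 3480 in confined WT, 10458, 10145 and 9969 in nonconfined KO and 5530, 5417 and 5593 in confined KO. Both sums were low in confined cells and higher in KO than in WT. The 5 granulocyte progenitor genes, led by Mpo and all present, summed to 6869, 6462 and 6566 in nonconfined WT, 1290, 1137 and 1161 in confined WT, 6932, 6548 and 6958 in nonconfined KO and 3629, 3329 and 3667 in confined KO. Here the nonconfined groups overlapped, and confined WT was lowest.

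In the LPS libraries the sums were 307657, 287962 and 290746 for the neutrophil genes where labelled WT and 274677, 311369 and 292778 where labelled KO. For the eosinophil genes they were 39894, 23386 and 31523 and 23177, 39473 and 32210, for the mast cell and basophil genes 6861, 6602 and 6696 and 6429, 7061 and 7093, and for the progenitor genes 3328, 5396 and 3923 and 5231, 3164 and 4113. The labels overlapped in each of these lists. Over both labels, 4 neutrophil genes were higher with LPS than in nonconfined cells and 3 lower, and for the eosinophil genes the counts were 0 and 4, for the mast cell and basophil genes 1 and 5 and for the progenitor genes 0 and 5, beside 37.2% and 34.3% of all genes. By the WT label these counts were 4 and 2, 0 and 1, 1 and 2, and 0 and 5, beside 33.4% and 29.4%. By the KO label they were 1 and 5, 0 and 3, 0 and 5, and 0 and 4, beside 33.4% and 30.1%. With confinement in WT the counts higher and lower were 0 and 7 of 8 neutrophil genes, 0 and 4 of 5 eosinophil genes, 1 and 5 of 6 mast cell and basophil genes, and 0 and 5 of 5 progenitor genes, and in KO 1 and 2, 0 and 4, 1 and 5, and 0 and 4, beside 28.2% and 28.4% of all genes in WT and 22.8% and 23.4% in KO. For confined KO against WT they were 8 and 0, 4 and 1, 5 and 0, and 5 and 0 in this order, beside 18.8% and 20.6%, and for nonconfined KO against WT 8 and 0, 3 and 1, 4 and 0, and 0 and 0, beside 4.78% and 4.11%. Of the 8 macrophage genes, led by Csf1r, 0 rose and 5 fell with confinement in WT and 0 and 6 in KO. With LPS 2 of them were higher and 6 lower. For KO against WT the macrophage counts were 3 and 0 nonconfined and 3 and 1 confined, beside the shares of all genes given above. The 3 erythroid genes, led by Hba-a1, were low: they summed to a mean of 4.61 in nonconfined WT, none of them passed the filter, and Alas2 was at 0 in all libraries. The share of counts from 13 mitochondrial genes was 3.07% to 3.34% in nonconfined, 2.28% to 2.79% in confined and 2.27% to 2.62% in LPS libraries. The part of these cell types, and of RNA quality, in the changes of Trpm2 or of the other genes was not tested.

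**Figure D3:**
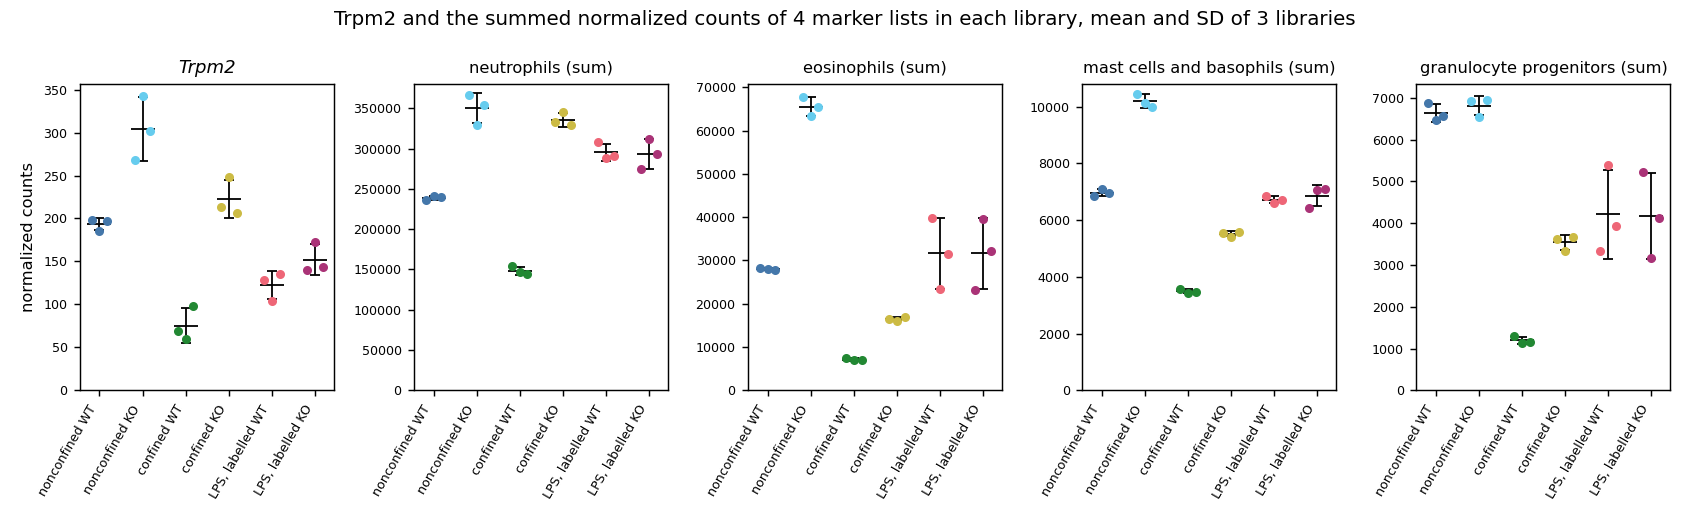
Normalized counts of Trpm2 and summed normalized counts of 4 lists of marker genes (vertical axes, from 0) in each of the 18 libraries, with the mean and SD of 3 libraries. Trpm2 and all 4 sums are lowest in confined WT, where Trpm2 reads 68.6, 59.2 and 98.3.

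The wider calcium pathway was followed through 109 genes listed by role, 88 of which were tested, the 10 members included. With confinement in WT 38 were higher, 31 lower and 19 not past the threshold. In KO the counts were 32, 20 and 36, and with LPS 39, 35 and 14. Over all genes tested the shares higher and lower were 28.2% and 28.4% with confinement in WT, 22.8% and 23.4% in KO, and 37.2% and 34.3% with LPS. The median log2 change was 0.07 with confinement in WT, -0.02 in KO and 0.07 with LPS, near the medians of all genes. At equal library totals the WT and LPS medians were -0.15 and -0.43, below 0 like those of all genes, and of the 89 genes then tested 29 were higher and 40 lower in WT and 23 and 53 with LPS.

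Of 17 genes tested from the list of mechanosensitive and plasma membrane cation channels, which also holds the endosomal channel Mcoln2, 9 were higher and 2 lower in confined WT (median 0.27), or 7 and 4 (median 0.05) at equal library totals. The counts were 11 and 1 in confined KO (median 0.34). With LPS 10 were higher and 4 lower (median 0.30), or 5 and 9 (median -0.19) at equal library totals. Of 8 genes of release from the endoplasmic reticulum, 2 were higher and 6 lower in confined WT (median -0.84, or -1.17 at equal library totals, where 9 were tested), 2 and 5 in confined KO (median -0.53) and 2 and 4 with LPS (median -0.25). Of store-operated entry, 4 of 9 genes were higher and 4 lower in confined WT, 1 and 3 in confined KO and 3 and 5 with LPS. Genes that make and remove IP3 were higher in 6 and lower in 3 of 13 in confined WT, 4 and 1 in confined KO and 5 and 5 with LPS. Calcium pumps and exchangers gave 4 higher and 5 lower of 11 in confined WT, 4 and 3 in confined KO and 7 and 2 with LPS. For mitochondrial uptake the counts were 4 and 2 of 8 in confined WT, 2 and 1 in confined KO and 4 and 4 with LPS. Calcineurin, NFAT and calmodulin kinase genes numbered 9 higher and 9 lower of 22 in confined WT, 8 and 6 in confined KO and 8 and 11 with LPS. These counts too depend on the scaling, and at equal library totals they were 2 and 5 in WT and 2 and 6 with LPS for store-operated entry, 2 and 7 in WT and 1 and 8 with LPS for release, 6 and 4 in WT and 5 and 7 with LPS for IP3, 3 and 5 in WT and 3 and 4 with LPS for pumps and exchangers, 2 and 4 in WT and 1 and 5 with LPS for mitochondrial uptake and 7 and 11 in WT and 6 and 14 with LPS for calcineurin, NFAT and calmodulin kinases.

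**Figure D4:**
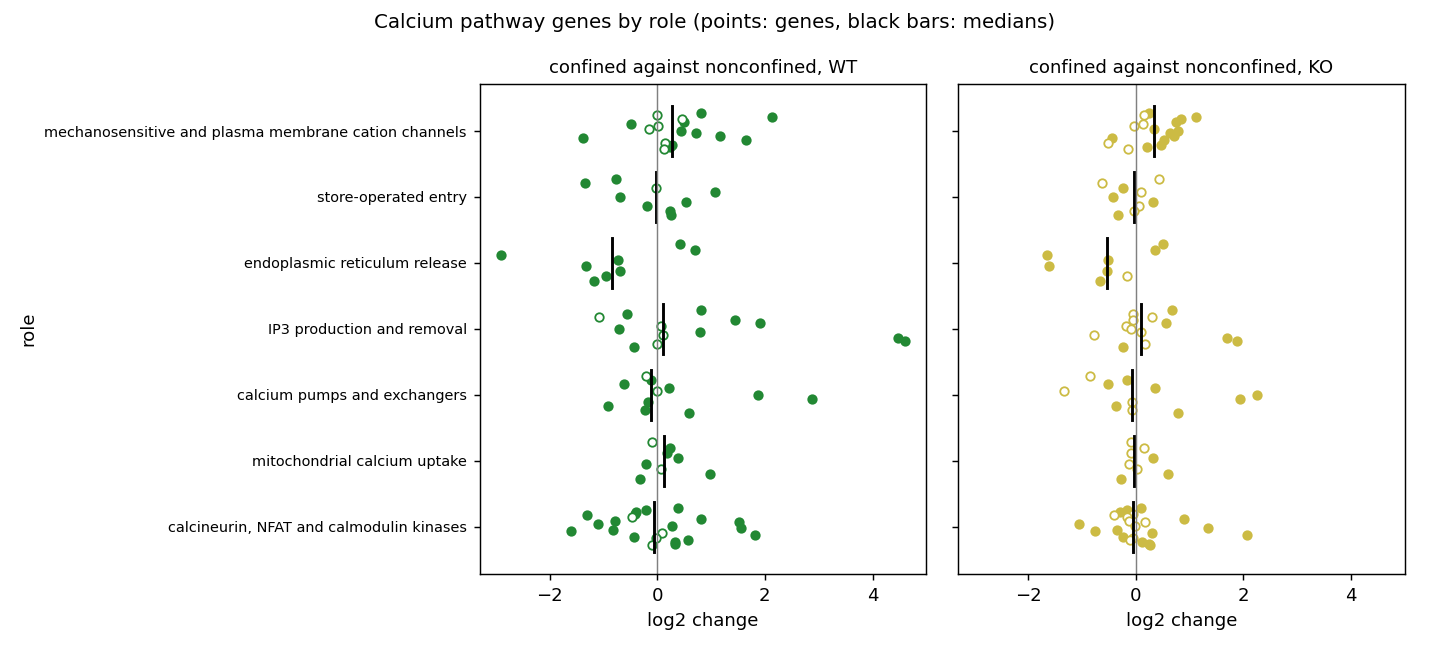
Log2 change with confinement (horizontal axes) of the tested calcium pathway genes by role, in WT and in KO cells, where open points are not past the threshold and black bars are medians. The median of the release genes is -0.84 in WT and -0.53 in KO, and that of the channels 0.27 (0.05 at equal library totals) and 0.34.

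Among pathway genes other than the members with a mean of 100 normalized counts or more and separate libraries, those with the largest rises in confined WT were Plcd1, Mcoln2 and Itpkc. Some genes below that level moved further. Plcd1, a phospholipase C that makes IP3, read 38.9, 29.0 and 36.4 normalized counts in nonconfined WT and 809, 738 and 830 in confined WT. In KO it read 46.2, 47.5 and 26.2 nonconfined and 140, 109 and 134 confined. Its rise was large in both genotypes, with no overlap, and confined KO stayed far below confined WT. The log2 change of Plcd1 was 4.48 ± 0.18 (adjusted p = 9.01e-15) in WT and 1.69 ± 0.18 (adjusted p = 1.65e-07) in KO, and 3.08 ± 0.13 (adjusted p = 3.89e-15) with LPS. Mcoln2, a cation channel of endosomes, rose by 2.14 ± 0.12 (adjusted p = 2.84e-12) in WT and 1.12 ± 0.12 (adjusted p = 1.93e-07) in KO. Itpkc, a kinase that removes IP3 by phosphorylation, rose by 1.91 ± 0.13 (adjusted p = 2.83e-11) in WT. Nfat5, a transcription factor of the response to osmotic stress, was among the top rises in KO (1.35 ± 0.17, adjusted p = 1.74e-06) and with LPS (2.54 ± 0.12, adjusted p = 4.34e-14). Trpm4, a channel for monovalent cations opened by calcium, rose with LPS by 2.46 ± 0.08 (adjusted p = 8.17e-17). Within the same limits, the largest falls in confined WT were those of the transcription factor Nfatc2 (-1.59 ± 0.17, adjusted p = 8.72e-08), the kinase Camk1d (-1.30 ± 0.22, adjusted p = 2.63e-05) and the upstream kinase Camkk1 (-1.09 ± 0.22, adjusted p = 2.02e-04). In KO they were Camkk1 (-1.04 ± 0.22, adjusted p = 4.86e-04), Nfatc2 (-0.75 ± 0.17, adjusted p = 0.00133) and Irag2 (-0.51 ± 0.09, adjusted p = 1.13e-04), whose older name Lrmp the table uses. Within them, with LPS Nfatc2 (-2.15 ± 0.12, adjusted p = 8.55e-13), Irag2 (-1.79 ± 0.07, adjusted p = 2.95e-16) and Itpr3 fell most.

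Over the 18 libraries, the genes most like Piezo1 among 10554 with a symbol and a mean of at least 100 normalized counts were Smcr8 (Pearson r = 0.979), Ikbkg (0.973), Abcc1 (0.970), Avl9 (0.969) and Rnf185 (0.969), on log2 normalized counts. For Trpm2 they were Arhgap45 (0.947), Vrk3 (0.946), Atp6v1g2 (0.944), Il18r1 (0.944) and P2ry1 (0.935). These libraries fall into 6 groups, which these genes share, so the values describe likeness over groups more than over libraries.

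The 250 bases before the annotated start of each gene (GRCm39, GENCODE M39) were searched on both strands for the binding motif of NF-kB, by name, and for the AP-1 motif TGANTCA. The NF-kB motif was present in 919 of 21751 promoters of protein-coding genes (4.23%) and in 1 of the 10 members, Tmem63b, and the AP-1 motif in 1343 (6.17%) and in 0 members. The Tmem63b window lies on the minus strand of chromosome 17 and is covered by exons of Tmem63b and of the gene Mrpl14. Only the matches in this window are therefore shown, with 8 bases on each side and the match in capitals. The stretch at chr17:45997321-45997347 holds 2 overlapping matches and the stretch at chr17:45997257-45997282 holds 1. Whole windows are shown for Piezo1 (chr8:123278073-123278322, minus strand, 74.8% G and C) and Itpr2 (chr6:146403722-146403971, minus strand, 74.4%), which move in opposite directions with confinement, hold neither motif and contain no annotated exon. The median over all promoters was 53.2% G and C. A match describes the letters only. Sequences are from the GRCm39 genome.
Tmem63b, farther from the start: aacagcctGGGAATCTCCCgccacgga
Tmem63b, nearer the start: gcgcgccaGGGGTTCTCCgtgagtgc
Piezo1: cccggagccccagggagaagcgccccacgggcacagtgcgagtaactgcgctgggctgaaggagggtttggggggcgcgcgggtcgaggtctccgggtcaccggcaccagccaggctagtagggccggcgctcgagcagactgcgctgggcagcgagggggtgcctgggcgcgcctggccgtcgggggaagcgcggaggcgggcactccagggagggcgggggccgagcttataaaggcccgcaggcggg
Itpr2: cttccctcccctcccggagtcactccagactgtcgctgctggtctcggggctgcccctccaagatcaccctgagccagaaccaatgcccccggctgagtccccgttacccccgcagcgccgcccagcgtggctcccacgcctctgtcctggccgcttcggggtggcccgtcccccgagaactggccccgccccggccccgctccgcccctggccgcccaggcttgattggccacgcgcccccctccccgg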

How the data were processed

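The authors aligned the reads to GRCm39 with STAR 2.7.5a, counted them on FAST DB genes with featureCounts 1.5.0 and scaled the counts with DESeq2 in R 3.5.3, and the deposited signal is these normalized counts of 62197 genes in 18 libraries. Polyadenylated RNA was prepared with 2 library kits, and the labels do not say which library used which. Dividing each library by its scaling recovered whole read numbers (100% of values, tolerance 1e-06), from which the depths come. The test was limma 3.58.1 in R 4.3.3 (two-sided, trend, all 18 libraries and 6 groups in 1 fit) on log2 of the normalized count plus 1, over the 17875 genes with at least 10 in at least 3 libraries, with Benjamini-Hochberg adjustment over all of them. A gene was called at an adjusted p under 0.05. The LPS comparison averages both genotype labels. Members and lists (the calcium pathway by role, and markers of dendritic cells, macrophages, neutrophils, eosinophils, mast cells and basophils, granulocyte progenitors and erythroid cells) were chosen with earlier results of these data known. Besides members and their relatives, the pathway genes named are the 3 with the largest called rise and the 3 with the largest called fall in each of the confinement and LPS comparisons among genes whose mean reached 100 normalized counts and whose compared libraries did not overlap, members apart. The alternatives tried were equal library totals, TMM scaling, edgeR 4.0.16 and DESeq2 1.42.0 on recovered reads, only the groups compared, a block for replicate numbers, leaving out each library, a pseudocount of 0.5 or 5, and a filter of 100 or none. Fits without the LPS libraries and with them as 1 group were chosen after seeing the data. Tables and figures were made in Python 3.11.15 with pandas 2.3.3, numpy 2.4.6 and matplotlib 3.10.9.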

Additional observations from a re-analysis of the deposited data

Results flagged for a closer look

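The log2 change with confinement was compared between KO and WT by the test of the difference itself, taken as KO minus WT, in which 10.2% of all genes were called higher and 15.6% lower. Of the 10 members 3 were higher and 1 lower, and of the 88 pathway genes tested 18 and 19. Among the members, for Trpm2 the difference was 0.94 (adjusted p = 0.00465), from -1.38 in WT and -0.44 in KO. For Tmem63b the difference was -0.45 (adjusted p = 0.0128), from 1.17 in WT and 0.72 in KO, and not past the threshold at equal library totals (-0.26). For Piezo1 the difference was 0.26 (adjusted p = 0.0462), from 0.50 in WT and 0.75 in KO, a call lost without any of 11 libraries in turn (nonconfined WT replicate 1 or 3, nonconfined KO replicate 1 or 3, confined WT replicate 1, 2 or 3, confined KO replicate 1 or 3, LPS labelled WT replicate 3 or LPS labelled KO replicate 3), with 0.19 to 0.27 and adjusted p from 0.0554 to 0.139. For Stim1 the difference was 0.25 (adjusted p = 0.0349), from -0.19 in WT and 0.06 in KO, a call lost without any of 7 libraries in turn (nonconfined WT replicate 1 or 3, nonconfined KO replicate 3, confined WT replicate 2 or 3 or confined KO replicate 1 or 3), with 0.21 to 0.25 and adjusted p from 0.0568 to 0.0969.

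Among the relatives of the members, Orai2 differed by -0.98 (adjusted p = 9.35e-07). Orai3 differed by 0.28 (adjusted p = 0.0257), a call lost without any of 6 libraries in turn (nonconfined WT replicate 1, nonconfined KO replicate 2, confined WT replicate 2 or 3 or confined KO replicate 1 or 3), with 0.22 to 0.27 and adjusted p from 0.051 to 0.0797. Itpr3 differed by 0.79 (adjusted p = 0.0403), a call lost without any of 8 libraries in turn (nonconfined WT replicate 1 or 3, nonconfined KO replicate 2, confined WT replicate 1 or 3 or confined KO replicate 1, 2 or 3), with 0.61 to 0.82 and adjusted p from 0.055 to 0.117.

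Among the other pathway genes described, Plcd1 rose less in KO (-2.79, adjusted p = 2.85e-08), as did Itpkc (-1.34, adjusted p = 5.53e-06), Mcoln2 (-1.02, adjusted p = 1.19e-04) and Trpm4 (-1.12, adjusted p = 2.53e-05). Nfatc2 fell less in KO (0.84, adjusted p = 0.0146), a call lost without nonconfined KO replicate 1 (0.64, adjusted p = 0.0507). Camk1d differed by 0.90 (adjusted p = 0.0344), a call lost without any of 8 libraries in turn (nonconfined WT replicate 1 or 3, nonconfined KO replicate 1 or 3, confined WT replicate 1 or 2 or confined KO replicate 1 or 3), with 0.81 to 0.92 and adjusted p from 0.0565 to 0.0848. The calls of Camk1d (0.90) and Itpr3 (0.79) were also lost with no filter, and those of Itpr3 (0.75) and Orai3 (0.24) with TMM scaling. Orai3 was also lost with edgeR (0.24), and Camk1d with the replicate block (0.90). The part of the marker genes that differ between these groups was not tested.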

How the results depend on the processing

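Over the alternatives that keep every library or drop only the LPS libraries, 1008 of 1070 member results kept their direction and side of the threshold, 24 lost a call, 22 gained one and 16 turned direction. With 1 library left out the numbers were 1722, 58, 9 and 11 of 1800. The cause was not tested. At equal library totals these turned: Tmem63a 0.10 and Trpv2 0.16 in the difference between genotypes, Tmem63a 0.04 and Orai1 0.05 in confined KO against WT, Trpm7 -0.19 with LPS (-0.22 labelled WT, -0.17 labelled KO), Itpr2 -0.46 with LPS (-0.27 labelled WT), Piezo1 0.15 in confined WT against LPS and Trpv4 -0.10 with confinement in WT. With TMM scaling and edgeR, Trpv2 (-0.01 and -0.01) and Trpm7 (-0.01 and -0.01) turned in confined KO against WT and Itpr2 (-0.02 and -0.01) with LPS, and with edgeR Camkk1 -0.02 in the difference between genotypes.

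The count of members whose change differed between genotypes, 4, was 2 with no filter and 2 to 6 with 1 library left out. The count for nonconfined KO against WT, 1, was 2 at equal library totals, 2 by DESeq2, 2 with only the groups compared, 2 without the LPS libraries and 0 to 2 with 1 library left out. Values that turned on leaving out 1 library ranged over -0.07 to 0.01 for Orai1 with confinement in WT, -0.08 to 0.06 for Stim2 with confinement in KO, -0.17 to 0.24 for Camkk1 and -0.50 to 0.02 for Nfat5 in the difference between genotypes, -0.08 to 0.02 for Tmem63a in nonconfined KO against WT, -0.01 to 0.05 for Trpv2 and -0.01 to 0.05 for Trpm7 in confined KO against WT, -0.01 to 0.06 for Itpr2 with LPS, -0.16 to 0.03 for Tmem63a and -0.03 to 0.10 for Stim1 between the LPS labels, and -0.01 to 0.09 for Tmem63a in confined WT against LPS.

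With the replicate number as a replicate block the change of Piezo1 with confinement in WT was 0.50, and its difference between genotypes, 0.26, was not past the threshold. Without a filter, 1 of 31495 genes was called between the LPS labels. The lowest value of any member in any library was that of Trpm2 in confined WT, at 59.2 normalized counts. With 3 libraries a group, calls near the threshold can change with 1 library, as the calls above do.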
